A study of Capra hircus with 2 samples.

Results

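The small leucine-rich proteoglycans are secreted proteins of connective tissue built around a curved core of leucine-rich repeats, and several carry sulfated sugar chains. They bind collagen fibrils and help to set how thick and how regularly spaced those fibrils become, and some hold growth factors of the TGF-beta family in the matrix. In skeletal muscle they are made mainly by the connective tissue cells between the fibres rather than by the fibres themselves.

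The family was examined here through 6 genes, decorin (DCN), biglycan (BGN), asporin (ASPN), fibromodulin (FMOD), lumican (LUM) and osteoglycin (OGN), chosen as a list of cattle RefSeq transcripts and looked up by accession. All 6 were present in both deposited lists, out of 11663 accessions found in either. The lists came from longissimus thoracis, a back muscle, of the Chinese Xuhuai goat (Capra hircus). The 6-month library came from goats aged 6 months and held 9144138 unique reads over 10850 accessions, and the fetal library came from day 90 of a 150-day gestation and held 12811117 unique reads over 11393 accessions. Each stage had 1 library, the number of animals in it is not stated, and the collection text given for the 6-month muscle is that of the fetuses. Nothing in the labels or lists gives a measure of the spread between animals, so the intervals below are 95% exact intervals that cover counting error alone, and no p-value was computed. The lists carry no gene symbols, so markers of muscle fibres, cartilage, fat or blood could not be looked up, and the labelled tissue was not checked against them. As the muscle was sequenced in bulk, fewer matrix-producing cells and less RNA per cell cannot be told apart. Levels are relative to each library's reads, so more RNA from other genes cannot be told apart from these either.

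All 6 proteoglycan transcripts were lower in the 6-month library than in the fetal library, by between 3.92-fold and 31.7-fold. Decorin was the most abundant member in both libraries and had the smallest difference, and asporin had the largest. The levels are given in RPKM, reads normalised to transcript length and to the read total of the library. This allows genes of different length to be set side by side. The reads are from goat and the 6 transcripts from cattle. Whether sequence differences cost some genes more reads than others was not tested. Summed over the family, the level was 493.4 RPKM at 6 months, against 2878 RPKM in the fetal library, a 5.83-fold lower total. The family took 0.106% of all reads at 6 months (interval 0.104 to 0.108) and 0.617% in the fetal library (0.613 to 0.622).

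**Figure D1:**
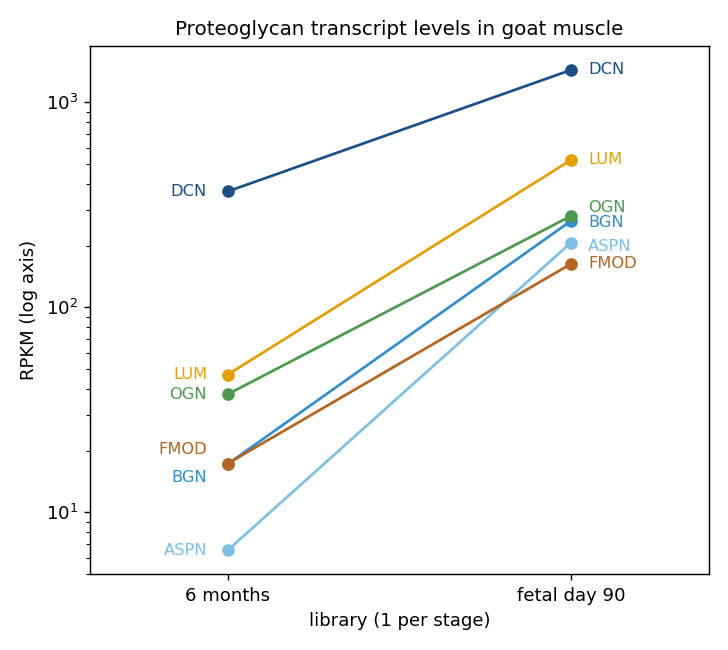
Transcript level of each of the 6 proteoglycans in RPKM on a log axis, with 1 point per library and a line joining the points of a gene. Every line is higher at the fetal end, the decorin line is the highest and flattest, the asporin line crosses that of fibromodulin, and the biglycan line meets it at 6 months.

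Decorin, biglycan and asporin form class I of the family. Decorin binds type I collagen along the fibril and carries a chondroitin or dermatan sulfate chain. DCN (NM_173906, 2159 bases) had 7260 reads at 6 months, against 39832 reads in the fetal library, or 367.7 RPKM at 6 months, against 1440 RPKM in the fetal library. Its share of reads was 3.92-fold lower at 6 months (interval 3.82 to 4.02). By level it was the 231st of the accessions listed at 6 months, and the 99th in the fetal library.

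Biglycan is the closest relative of decorin, and it too carries chondroitin or dermatan sulfate. BGN (NM_178318, 2193 bases) had 345 reads and 17.2 RPKM at 6 months, against 7429 reads and 264 RPKM in the fetal library. Its share of reads was 15.4-fold lower at 6 months (13.8 to 17.2). Although the pair share their class and their type of sugar chain, the ratio of DCN to BGN reads was 3.92 times as high at 6 months as in the fetal library (3.51 to 4.40).

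Asporin is named for a stretch of aspartate residues near its start, and it binds collagen in competition with decorin. ASPN (NM_001034309, 2378 bases) had 142 reads and 6.53 RPKM at 6 months, against 6313 reads and 207 RPKM in the fetal library. Its share of reads was 31.7-fold lower at 6 months (26.9 to 37.7), which left 3.15% of the fetal share. It ranked 4941st by level at 6 months and 353rd in the fetal library. Class I thus held both the smallest and the largest difference of the family.

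Lumican and fibromodulin form class II, and both can carry keratan sulfate. They bind the same region of type I collagen, lumican being best known from the cornea and fibromodulin from tendon. LUM (NM_173934, 1821 bases) had 782 reads and 46.96 RPKM at 6 months, against 12225 reads and 524 RPKM in the fetal library. Its share of reads was 11.2-fold lower at 6 months (10.4 to 12.01). FMOD (NM_174058, 2656 bases) had 420 reads and 17.3 RPKM at 6 months, against 5550 reads and 163 RPKM in the fetal library, a share 9.43-fold lower at 6 months (8.54 to 10.4). The FMOD to LUM ratio in RPKM was 0.37 at 6 months, against 0.31 in the fetal library, a change of 1.18 times (1.04 to 1.34). That was the smallest change of any pair, but its interval overlaps those of OGN to FMOD, 1.27 times (1.12 to 1.44), and of LUM to BGN, 1.38 times (1.21 to 1.57).

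Osteoglycin, also called mimecan, belongs to class III. OGN (NM_173946, 2166 bases) had 746 reads and 37.7 RPKM at 6 months, against 7754 reads and 279 RPKM in the fetal library. Its share of reads was 7.42-fold lower at 6 months (6.88 to 8.01), the smallest difference after decorin.

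A difference on the log2 scale, taken as log2(RPKM + 1) at 6 months minus that in the fetal library, allowed the 6 genes to be set beside all accessions. The pseudocount of 1 slightly understates the change of low transcripts, most of all that of asporin. Of the 9705 accessions with an RPKM of 1 or more in either library, 35.1% were lower at 6 months by 1 log2 unit or more, and 9.46% were higher. All 6 proteoglycans were lower by that measure, from -1.97 for DCN through -2.86 for OGN, -3.17 for FMOD, -3.45 for LUM and -3.87 for BGN to -4.79 for ASPN. The median was -3.31 over the 6 and -0.61 over all accessions compared. As the 6 were chosen with earlier results of these data known, setting them beside all accessions is description only. A difference of 2 log2 units or more downward was found for 5 of the 6, DCN lying just short of it, and for 10.8% of accessions compared. A difference of 3 or more was found for 4 of the 6 (FMOD, LUM, BGN and ASPN) and for 3.14% of accessions. Of all accessions compared, 33, ASPN included, had a difference as low as that of ASPN or lower, and 1091 one as low as that of DCN.

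**Figure D2:**
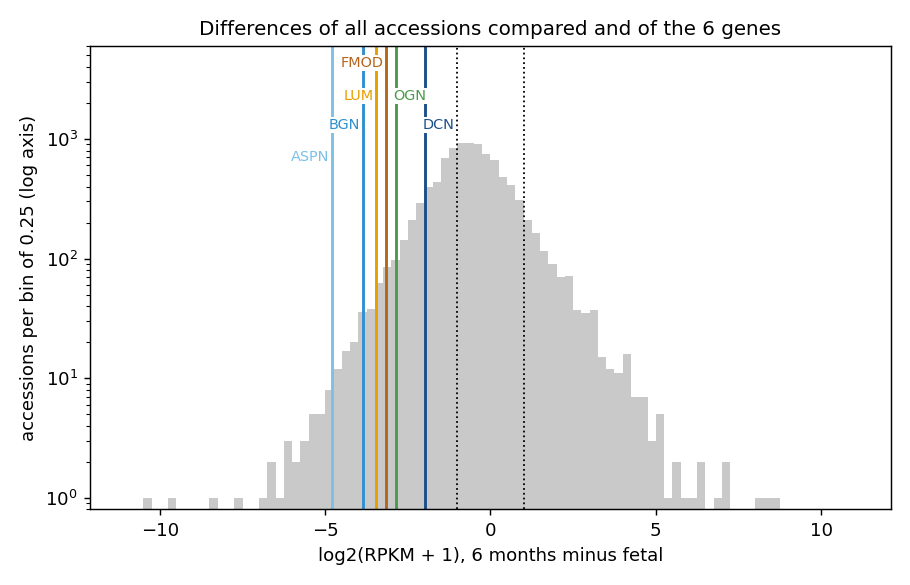
Number of accessions, on a log axis, at each difference in log2(RPKM + 1) between the 6-month and the fetal library, with dotted lines at 1 unit in each direction and a coloured line for each proteoglycan. All 6 lines lie left of the dotted line at -1, from -1.97 for DCN to -4.79 for ASPN, where few accessions remain.

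The level averaged over both libraries was 50 to 1000 RPKM for 1261 accessions, a range that holds all 6 genes. Of these accessions, 29.2% were lower at 6 months by 1 log2 unit or more, and the median difference was -0.13. All members but DCN were below 50 RPKM at 6 months, and reached the range through fetal levels of 163 (FMOD) to 524 RPKM (LUM). The range is thus not matched to their 6-month levels. The median ratio of levels at 6 months to fetal levels was -0.58 log2 units, a shift of 1.49-fold. It was taken over 8201 accessions with an RPKM of 1 or more in both libraries. Relative to that shift, DCN was 2.62-fold lower at 6 months, OGN 4.97-fold, FMOD 6.32-fold, LUM 7.47-fold, BGN 10.3-fold and ASPN 21.3-fold. After this centring 22.3% of accessions were lower at 6 months by 1 log2 unit or more and 17.2% higher (2162 and 1674 accessions), and all 6 proteoglycans were still among the lower ones. At 2 log2 units after centring, 5 of the 6 and 6.7% of accessions were lower. In the range of 50 to 1000 RPKM the median difference after centring was 0.44, so the shift was not the same at all levels.

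The make-up of the family differed between the libraries. Shares of the summed RPKM do not depend on how the libraries are scaled to each other. Decorin made up 74.5% of the family at 6 months, against 50.03% in the fetal library. The share of lumican was 9.52% at 6 months, against 18.2% in the fetal library, and that of osteoglycin 7.63% at 6 months, against 9.71% in the fetal library. Fibromodulin held 3.50% at 6 months, against 5.67% in the fetal library, and biglycan held 3.49% at 6 months, against 9.19% in the fetal library. Asporin held 1.32% at 6 months, against 7.20% in the fetal library, a 5.44-fold smaller share.

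**Figure D3:**
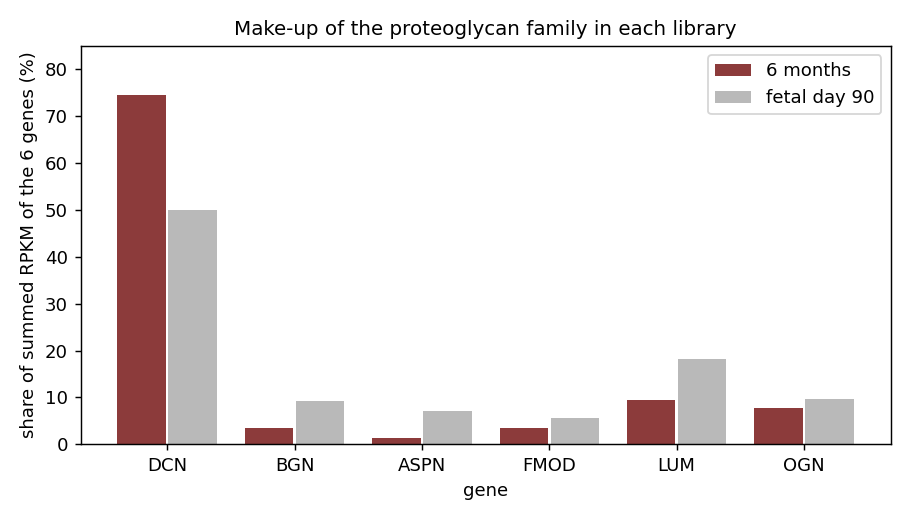
Share of each gene in the summed RPKM of the 6 proteoglycans, in percent, with the 6-month bar left of the fetal bar for each gene. Decorin is the sole member with a larger share at 6 months (74.5%) than in the fetal library (50.03%).

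The same was seen in reads without the correction for length. Decorin took 74.9% of the family's reads at 6 months (interval 74.01 to 75.7) and 50.4% in the fetal library (50.01 to 50.7), so the intervals lie far apart. For asporin the read share was 1.46% at 6 months (1.24 to 1.72) and 7.98% in the fetal library (7.79 to 8.17). An evenness measure, the effective number of members given by the entropy of the RPKM shares, was 2.54 at 6 months, against 4.28 in the fetal library. By class, class I held 79.3% of the summed level at 6 months, against 66.4% in the fetal library, but without decorin it held 4.81% at 6 months, against 16.4% in the fetal library. Class II held 13.02% at 6 months, against 23.9% in the fetal library.

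Decorin also accounted for 44.96% of the summed difference in RPKM between the libraries, and lumican, the next most abundant member, for 20.003%. The 5 genes other than decorin summed to 126 RPKM at 6 months, against 1438 RPKM in the fetal library, an 11.4-fold lower total. Within those 5, osteoglycin had a share of 29.97% at 6 months, against 19.4% in the fetal library, and asporin 5.20% at 6 months, against 14.4% in the fetal library. Lumican was near 37.4% at 6 months, against 36.4% in the fetal library. Fibromodulin had 13.8% of them at 6 months, against 11.3% in the fetal library, and biglycan 13.7% at 6 months, against 18.4% in the fetal library. Once decorin was set aside, the shares of OGN and FMOD were thus larger at 6 months, and those of BGN and ASPN smaller. In reads, these 4 shares differed between the libraries beyond counting error. The read share of lumican among the 5 was 32.1% at 6 months (interval 30.3 to 34.01), against 31.1% in the fetal library (30.7 to 31.6), a difference within counting error.

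The order of levels changed at its lower end. At 6 months it ran DCN, LUM, OGN, FMOD, BGN and ASPN, and in the fetal library DCN, LUM, OGN, BGN, ASPN and FMOD. Fibromodulin, the lowest in the fetal library, was level with BGN and above ASPN at 6 months. At 6 months FMOD and BGN could not be told apart at this depth, with a ratio of levels per length of 1.01 (0.87 to 1.16). Per whole transcript length, every other pair of neighbours in the order differed beyond counting error in its library. The narrowest gap in the fetal library was that of OGN over BGN, with a ratio of 1.06 (1.02 to 1.09). At 6 months after FMOD and BGN it was that of LUM over OGN, with 1.25 (1.13 to 1.38). The order depends on the length used. Over the bases covered in the fetal library, BGN held 10.5% of the family there and OGN 9.05%, so that pair changed places. On the same base BGN held 3.97% at 6 months and FMOD 3.63%.

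The change of a ratio between members from library to library depends on neither the scaling nor the transcript length. All 15 pairs were compared, and for all 15 the ratio differed between the libraries beyond counting error. These changes follow from the fold differences of the 6 genes given above and are not separate evidence. Decorin, with the smallest difference, thus gained on every other member. The DCN to BGN ratio in RPKM was 21.4 at 6 months, against 5.45 in the fetal library. The DCN to ASPN ratio was 56.3 at 6 months, against 6.95 in the fetal library, an 8.10-fold change (6.85 to 9.66). Against OGN the ratio was 9.76 at 6 months, against 5.15 in the fetal library, a change of 1.89 times (1.75 to 2.05). Asporin lost ground to every other member, also to biglycan, the one nearest to it, where the BGN to ASPN ratio was 2.63 at 6 months, against 1.28 in the fetal library, a change of 2.06 times (1.69 to 2.54). How far such ratios vary between animals of the same age was not measured.

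**Figure D4:**
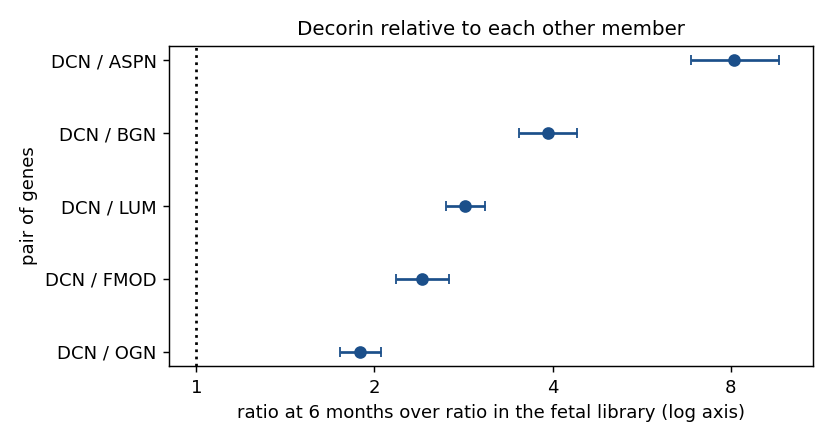
Ratio of decorin to each other member at 6 months divided by the same ratio in the fetal library, on a log axis, with bars for the 95% counting interval. All 5 points lie right of the dotted line at 1, from 1.89 for OGN to 8.10 for ASPN.

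Some of these genes are neighbours in the genome. In the goat RefSeq gene table (assembly ARS1.2), which holds all 6 symbols but none of the 6 cattle accessions, LUM and DCN stand next to each other, with the related genes KERA and EPYC beyond LUM. OGN and ASPN are separated by OMD alone and followed by ECM2, and FMOD is followed by PRELP and OPTC. Members of a cluster did not differ between the libraries by the same amount. The DCN to LUM ratio was 7.83 at 6 months, against 2.75 in the fetal library, a change of 2.85 times (2.64 to 3.08). The OGN to ASPN ratio was 5.77 at 6 months, against 1.35 in the fetal library, a change of 4.28 times (3.56 to 5.17). In the goat table the span of CENPP, a centromere gene, overlaps those of OGN and ASPN. The sources used here do not give whether reads were counted by strand, so a share of CENPP reads in their counts cannot be told apart. Accessions of the cluster's other genes were not named in the sources used here.

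Reads reached most of each transcript in both libraries, with gaps that differed by gene. A read spans 90 bases in these libraries, so the mean depth ran from 5.37 reads per base for ASPN to 303 for DCN at 6 months, and from 188 for FMOD to 1660 for DCN in the fetal library. LUM was the most fully covered, at 91.3% of its length at 6 months, against 97.3% in the fetal library. BGN was the least covered, at 67.2% at 6 months, against 76.6% in the fetal library, where 514 bases had no read despite a depth of 305. DCN coverage was 85.1% at 6 months, against 86.1% in the fetal library, where 300 bases had no read at a depth of 1660. Over 4883 accessions with a depth of 5 or more in both libraries, median coverage was 84.6% at 6 months, against 86.4% in the fetal library. The deposited levels are per whole transcript, the uncovered bases included. With levels taken over the bases covered in the fetal library, BGN held 3.97% of the family at 6 months, against 10.5% in the fetal library, and DCN 75.4% at 6 months, against 50.8% in the fetal library. A ratio of the same transcript between libraries uses the same length on both sides.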

How the data were processed

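RNA sequencing measured longissimus thoracis in 1 library from 6-month goats and 1 from day-90 fetuses. Per the file headers, each RefSeq accession was deposited with its count of unique reads, its length in bases, the percent of that length covered and its RPKM. The sources used here name no aligner, counting rule, strandedness, build or origin of the transcripts. The deposited counts summed to the header totals, and the deposited RPKM followed from counts, lengths and totals, so an accession missing from a list had 0 reads.

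Symbols of the 6 genes came with the list of cattle accessions that defines the family. Of the 11663 accessions, 0 were in the goat table, so planned lists of other matrix, sugar-chain and marker genes could not be applied, and no sequences were analysed. Members and lists were chosen with earlier results of these data known. All 6 members are named.

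Differences were log2(RPKM + 1), 6-month minus fetal, among accessions with RPKM of at least 1 in either library, with a threshold of 1 log2 unit. This rule was tested on counts simulated from the accession table with counting error alone, so spread between animals had no part in that test. Intervals were 95% exact conditional binomial for ratios of reads, Clopper-Pearson for shares and exact conditional (Fisher) for ratios of ratios. They cover counting error only, since each stage had 1 library. They treat reads as independent, and reads without molecular identifiers are not independent molecules, so they may be too narrow even for that. A count of 0 (3 counts of the total) would have allowed 3.28e-05% of 6-month and 2.34e-05% of fetal reads. Alternatives covered pseudocount, scaling, threshold, minimum level and the base of the shares. Values were computed in Python 3.11.15 with NumPy 2.4.6, SciPy 1.17.1 and pandas 2.3.3, and drawn with matplotlib 3.10.9.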

Additional observations from a re-analysis of the deposited data

How the results depend on the processing

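All 6 genes stayed lower at 6 months by 1 log2 unit or more under every pseudocount, scaling and minimum tried, and 5 of them by 2 or more, on deposited and on median-centred RPKM. With a pseudocount of 5 the differences were -3.60 (BGN), -2.91 (FMOD), -3.35 (LUM), -2.74 (OGN) and -4.20 (ASPN), closer to 0 because it weighs most on low levels. Scaling each library to the same summed RPKM gave -1.86 for DCN and -2.44 for the family sum, against -2.54 on deposited RPKM. Centring on the median ratio gave -1.39 (DCN), -3.31 (BGN), -2.61 (FMOD), -2.88 (LUM), -2.29 (OGN), -4.28 (ASPN) and -1.96 (sum), and the trimmed mean gave -1.39, -3.31, -2.61, -2.88, -2.29, -4.27 and -1.96 in that order. Totals without the 50 most abundant accessions gave -1.74 (DCN), -3.66 (BGN), -2.96 (FMOD), -3.23 (LUM), -2.64 (OGN) and -2.31 (sum). Each of these scalings moves all accessions by 1 common factor, so the differences between members barely changed by construction. Over the whole table, 3411 accessions were lower and 918 higher at 6 months. Those lower numbered 4032 with a pseudocount of 0.1, 1811 with a pseudocount of 5 and 3338 with equal summed RPKM. They numbered 2162 and 2157 with the median and trimmed mean centring, 1051 at 2 log2 units and 650 at 2 units after centring. Those higher numbered 1075 with a pseudocount of 0.1, 655 with a pseudocount of 5 and 1081 with equal summed RPKM. They numbered 1674 and 1678 with the centrings, 339 at 2 units and 566 at 2 units after centring.

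In percentage points, 6-month minus fetal, the share of FMOD differed by -2.16, LUM by -8.69, OGN by -2.07, BGN by -5.70 and ASPN by -5.88. Without DCN in the sum, which removes its larger 6-month share from the base, the values were 2.42 (FMOD), 0.94 (LUM), 10.5 (OGN), -4.69 (BGN) and -9.21 (ASPN), so the first 3 changed sign, LUM within counting error. By reads they were -2.68 (FMOD), -7.39 (LUM) and -6.52 (ASPN). Over the covered length, chosen after seeing the data like the 2-unit threshold after centring, they were -6.51 (BGN) and -7.82 (LUM). No paired analysis was possible because each stage had 1 library, and no replicate could be left out. Depth was lowest for ASPN at 6 months, with 142 reads, and the spread between animals was not measured.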
